A study of Mus musculus with 38 samples.

Results

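The contact of the genome with the nuclear lamina was examined in wild-type naive mouse embryonic stem cells (mESCs) by setting CUT&RUN libraries for lamin B1 (LMNB1) against the IGG background of the same cells. The members are defined by antibody, genotype and stage, with no measured value, as 3 LMNB1 and 3 IGG libraries, 6 of the 38 samples of the series. Both groups were wild type, carried no edited allele, and were grown without serum or feeders in 2i + LIF, the inhibitor and cytokine medium that holds mESCs in the naive state. They differed in the antibody. LMNB1 was bound by a lamin B1 antibody, whereas the IGG control received a rabbit anti-mouse secondary antibody and was run beside the LAP2B libraries of the study. Whether LMNB1 was run at the same time is not given in the sources used here, and a difference between runs was not tested. The study's methods describe the karyotype of the wild-type line as mixed: some cells had lost the Y chromosome, and some of those had also gained chromosomes 6 and 8. The replicates were separate samples of cells of 1 line, so p-values measure the spread between these samples. A DNA assay holds no transcripts, and the naive identity of the cells could not be checked against expressed markers here.

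The nuclear lamina is a meshwork of lamins under the inner nuclear membrane, and the stretches of chromosome that rest on it are called lamina-associated domains. In mammalian cells such domains are typically long, poor in genes and G+C, rich in LINE elements and weakly transcribed, whereas gene-dense chromatin with active genes lies in the interior. In CUT&RUN, a nuclease carried to the antibody cuts and releases the DNA nearby, and the control without a specific antibody records where the nuclease cuts on its own.

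The recovered reads over genes came to 33339884 to 37189077 per LMNB1 library and to 12028659 to 45689196 per IGG library. IGG replicate 1 was the shallowest of the 6. Within each group the libraries differed by more than counting noise (chi-square per degree of freedom of 4.06 to 12.86) and their log2 values correlated across genes with r of 0.965 to 0.983, so each counted as 1 replicate.

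A gene's signal is the sum over the 1 kb bins it touches. Here it was divided by the median gene of its library, and this value is called the relative signal. The LMNB1 ratio is the log2 of LMNB1 over IGG after adding 0.1 to the relative signal. It was tested with limma, and a gene was called at a Benjamini-Hochberg adjusted p under 0.05. Of 78202 genes, 70381 passed the filter on low values and were tested. LMNB1 was called higher than IGG at 21109 genes (30%) and lower at 18139 (25.8%), with 31133 not called. At least 2-fold differences were called at 9265 genes (13.2%) in the higher and 8031 (11.4%) in the lower direction. The median ratio was 0.08, the 5th and 95th percentiles were -1.26 and 1.31, and the median SE was 0.26. Over all tested genes, the 3 LMNB1 and 3 IGG values did not overlap at 43638 (62%). Higher and lower are relative to the median gene of each library. Dividing by the mean gene moved the median ratio by -0.25 and gave 12368 higher and 26627 lower calls, so that 31.7% of calls were higher instead of 53.8%. On the spike-in scale the median ratio was 1.56, but the constant behind that scale is not given in the sources used here for either antibody.

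Odorant receptor genes led the higher side. Of the 8 protein-coding genes with the highest ratios that were called, covered at least 5 bins, did not overlap between groups and lay more than 1 Mb apart, 5 encode odorant receptors. Symbols that start with Gm or end in Rik were passed over in this choice. Or5h23 (ENSMUSG00000094539, chr16:58903192-58910185, GRCm39, minus strand), an odorant receptor gene of chromosome 16, had relative signals of 6.75, 3.52 and 4.94 in LMNB1 replicates 1 to 3 and of 0.5, 0.911 and 1.17 in IGG. The ratio was 2.45 ± 0.25 (SE, limma adjusted p = 1.39e-08, n = 3). Csn1s1 (ENSMUSG00000070702, chr5:87814067-87830437), which encodes an alpha casein of milk, had 15.0, 8.56 and 12.7 against 3.06, 1.94 and 2.11, a ratio of 2.29 ± 0.19 (adjusted p = 1.96e-09). In both genes LMNB1 replicate 1 was the highest library.

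The other members of this group had ratios of 2.11 to 2.3. Or6c3, Or13g1, Or4f61 and Or8k33 encode odorant receptors on chromosomes 10, 7, 2 and 2. Tex16, a gene named for its expression in testis, lies on X, and Dmac1, a factor for the assembly of respiratory complex I, on chromosome 4. Tex16 rested on few reads, with relative signals of 1.86, 0.920 and 1.35 in LMNB1 and 0.0556, 0.459 and 0.264 in IGG. Its lowest library held 2 reads.

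The lower side was led by genes of unlike functions. Taco1 (ENSMUSG00000001983, chr11:105956874-105965630), a translational activator of a mitochondrial oxidase subunit, had relative signals of 3.43, 4.36 and 3.48 in LMNB1 and of 37.7, 12.8 and 12.3 in IGG, a ratio of -2.25 ± 0.24 (limma adjusted p = 2.79e-08, n = 3). IGG replicate 1 stood far above the other two, and per 1 kb bin the IGG mean at this gene was 10.6 times that of the median gene, against 1.93 for LMNB1. The low ratio of Taco1 thus went with a high background, while its LMNB1 level was above that of the median gene. Catsper4 (ENSMUSG00000048003, chr4:133939279-133954733), which encodes a subunit of the calcium channel of sperm, had 1.01, 1.36 and 1.49 in LMNB1 and 6.94, 5.62 and 6.00 in IGG, a ratio of -2.19 ± 0.19 (adjusted p = 2.87e-09). Here LMNB1 was low as well, at 0.414 per bin against 1.94 for IGG.

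Or2at1, Asgr1, Cyth2, Msln, Rhou and Ak1 followed, with ratios of -2.12 to -1.95. Or2at1 is an odorant receptor gene that lies outside the large receptor clusters, Asgr1 encodes a subunit of the asialoglycoprotein receptor of hepatocytes, and Msln encodes mesothelin, a surface protein of mesothelium. Cyth2 encodes an exchange factor for Arf GTPases, Rhou a small GTPase and Ak1 an adenylate kinase. For the leading genes of either direction, the lack of overlap between LMNB1 and IGG libraries was a condition of the choice.

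**Figure D1:**
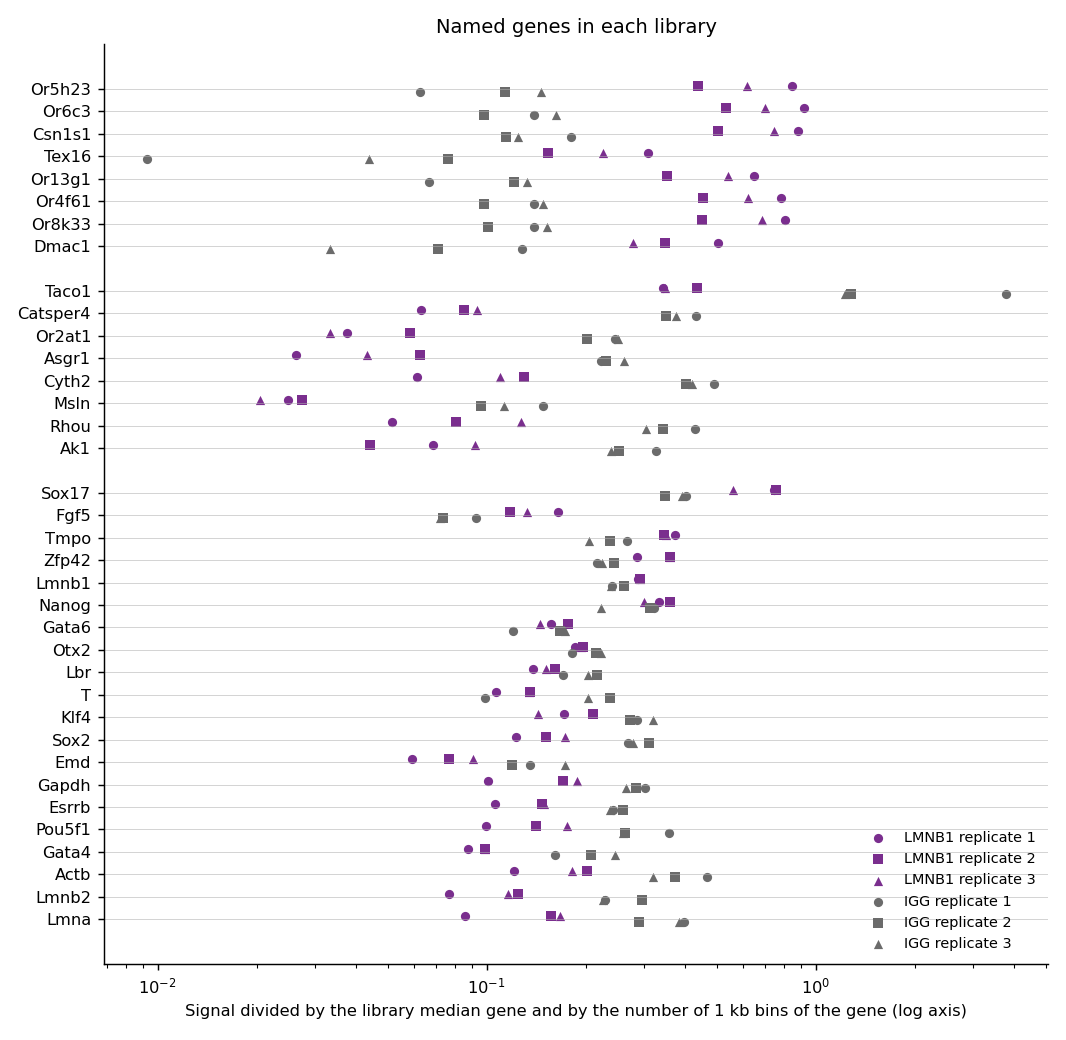
Relative signal divided by the number of 1 kb bins of each gene (x axis, log scale) in the 3 LMNB1 (purple) and 3 IGG (grey) libraries of naive mESCs, 1 symbol per replicate, for the 8 highest, the 8 lowest and 20 genes fixed by symbol. LMNB1 lies right of IGG in the upper group and left of it in the second, where no overlap was a condition of the choice. In the third group the order runs from Sox17, with a ratio of 0.81, to Lmna, with -1.41.

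The 250 bases upstream of the first genes of each direction are shown because promoter base composition differed between higher and lower genes as a whole. The sequences were read from GRCm39 on the strand of the gene. The motif searched was CG, which reads the same on both strands, and every CG is in capitals.

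Or5h23, chr16:58910186-58910435, minus strand: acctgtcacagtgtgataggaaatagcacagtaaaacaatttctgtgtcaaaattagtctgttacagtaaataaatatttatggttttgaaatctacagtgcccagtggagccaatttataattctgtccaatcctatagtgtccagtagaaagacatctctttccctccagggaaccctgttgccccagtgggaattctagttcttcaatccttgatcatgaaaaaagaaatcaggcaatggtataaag

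Or6c3, chr10:129306617-129306866, plus strand: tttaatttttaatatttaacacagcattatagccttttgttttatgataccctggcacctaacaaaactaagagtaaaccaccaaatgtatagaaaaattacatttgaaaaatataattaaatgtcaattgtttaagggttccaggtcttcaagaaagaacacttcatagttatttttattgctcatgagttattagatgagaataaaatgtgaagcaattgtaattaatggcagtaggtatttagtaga

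Taco1, chr11:105956624-105956873, plus strand: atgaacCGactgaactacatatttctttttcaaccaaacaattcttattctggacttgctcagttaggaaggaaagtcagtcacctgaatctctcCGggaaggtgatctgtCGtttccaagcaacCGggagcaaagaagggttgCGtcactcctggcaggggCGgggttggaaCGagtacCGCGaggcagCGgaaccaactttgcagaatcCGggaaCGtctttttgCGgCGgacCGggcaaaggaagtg

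Catsper4, chr4:133954734-133954983, minus strand: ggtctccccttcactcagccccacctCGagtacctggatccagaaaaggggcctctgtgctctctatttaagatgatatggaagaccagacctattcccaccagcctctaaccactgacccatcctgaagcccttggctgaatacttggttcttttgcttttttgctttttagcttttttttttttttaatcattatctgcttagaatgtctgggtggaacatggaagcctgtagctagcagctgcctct

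The receptor promoters hold 0 CG and 37.6% and 27.2% G+C. Taco1 holds 15 CG, a number that 11.1% of all 78131 promoters of this length reach, and Catsper4 holds 1, which 87.1% reach. Among protein-coding genes called at least 2-fold higher (2906 genes) the median promoter had 2 CG and 42% G+C, and 23% had none. Among those called at least 2-fold lower (3750 genes) it had 8 CG and 55.6% G+C, and 2.51% had none. The values over all tested protein-coding genes were 6 CG, 51.6% and 7.74%.

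Receptor families for smell, pheromones and taste were mostly called higher. These genes form tandem clusters and are best known from sensory neurons and taste cells. Of 114 tested class I odorant receptor genes, a family held in a single cluster of chromosome 7, 108 were called higher and 0 lower (94.7% against 30% of all genes), with a median ratio of 1.35 against 0.08. Of 870 class II genes 719 were higher and 32 lower (median 1.23). The vomeronasal receptors of type 1 had 122 of 148 higher and those of type 2 had 110 of 113, with medians of 1.03 and 1.32 and 0 lower. Of 34 bitter taste receptors 25 were higher and 0 lower (median 1.28).

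The filter on low values left out 35 class II, 82 vomeronasal type 1 and 12 vomeronasal type 2 genes, and members can be near copies of one another. The sources state that primary alignments were kept and do not state a cutoff on mapping quality, so a value of a single receptor gene may hold reads of a copy. The highest receptors were Or12e9, with relative signals of 4.30, 2.00 and 3.84 in LMNB1 and 0.167, 0.630 and 0.750 in IGG (ratio 2.59 ± 0.33), and, among the vomeronasal genes, Vmn1r231 (1.96 ± 0.17) and Vmn2r84 (1.82 ± 0.16). In each of them the groups did not overlap, as in 62% of all tested genes.

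Class II receptors did not behave as a unit. Parted wherever neighbours lay over 1 Mb apart, they formed 34 clusters of at least 3 tested genes, of which 25 had a median ratio above 0 and 9 below. Over all genes 30% were called higher and 25.8% lower. The 25 held 781 genes, of which 711 were called higher and 1 lower, and the 9 held 68, of which 0 were called higher and 26 lower. The clusters were sorted by the sign of this same ratio, so the split of calls follows largely from the sorting and is no separate evidence. The largest cluster, on chromosome 2 (chr2:85161123-90101376), had 202 of 203 genes higher with a median of 1.53 and G+C of 34.2%. A cluster of chromosome 15 (chr15:98104852-98400518) had 7 of 8 lower with a median of -0.80 and G+C of 46%. One of chromosome 11 (chr11:58344931-59505886) had 5 of 23 lower, which is no more than the share of all genes, and 0 higher. Across the 34 clusters the median ratio and the median G+C of the genes had a Spearman's rho of -0.877, a description over clusters that share the same 6 libraries.

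Immune and secreted families were higher to unequal degrees. Of 331 immunoglobulin V segments, which are joined into antibody genes in B cells, 297 were called higher and 0 lower (89.7% against 30% of all genes higher, median 1.11). Of 163 T cell receptor V segments 62 were higher, a share of 38% against 30% of all genes, with 0 lower and 101 not passing (median 0.57). The killer cell lectin-like receptors of natural killer cells had 26 of 27 higher (median 1.42), led by Klrb1f with relative signals of 9.30, 7.26 and 9.13 in LMNB1 and 2.22, 2.92 and 2.58 in IGG (ratio 1.70 ± 0.17, limma adjusted p = 8.32e-09).

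Beside the 30% of all genes called higher and 25.8% called lower, the Skint genes, active in skin and thymus epithelium, had 10 of 11 higher (1.33), and the major urinary proteins, lipocalins of liver that carry pheromones, 18 of 18 (0.77). Of the germline and early embryo Pramel genes 48 of 54 were higher (1.00), of the A and B serpins, a family of protease inhibitors, 34 of 53 (0.765), with 12 of 12 and 15 of 15 in the Serpinb clusters but 6 of 25 (median 0.28) in the Serpina cluster of chromosome 12, and of the zinc finger genes numbered Zfp900 to Zfp999, mostly KRAB repressors, 28 of 42, with 3 lower (0.75). No serpin, Skint, Pramel or urinary protein gene was called lower.

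Several families were divided by locus. The Ugt2 genes of chromosome 5, whose enzymes conjugate steroids and drugs, had 10 of 10 higher (median 1.64, led by Ugt2b38 with 1.85 ± 0.18), whereas the Ugt1a transcripts of chromosome 1 had 7 of 7 lower (median -0.58). The Ugt1a genes overlap and share bins, so they are not separate measurements. Among the cytochrome P450 genes of families 2 to 4, which oxidise drugs, steroids and fatty acids, 37 of 72 were higher (51.4% against 30% of all genes) and 20 lower (27.8%, near the 25.8% of all genes). Protein-coding genes alone had 32.3% higher and 39.8% lower. The Cyp3a cluster (6 of 6, median 1.40), Cyp2j (8 of 8, 1.13), Cyp4a (7 of 7, 0.82) and Cyp2c (12 of 13, 0.83) were on the higher side, and the cluster with Cyp2d (9 of 9, median -1.02) and that with Cyp4f (7 of 8, -0.97) on the lower. The 13 genes of the chromosome 7 cluster, with Cyp2a and Cyp2b genes, had 1 higher and 2 lower (median -0.06).

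Cyp3a25 and Cyp2d40 mark the range. Cyp3a25 had relative signals of 23.4, 15.8 and 18.1 in LMNB1 and 6.03, 6.25 and 6.01 in IGG (ratio 1.61 ± 0.15), and Cyp2d40 had 0.184, 0.341 and 0.377 against 1.44, 0.911 and 1.07 (-1.64 ± 0.30). Neither pair of groups overlapped, which also held for 62% of all tested genes.

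The defensins, small antimicrobial peptides, had 35 of 70 higher (50%) and 12 lower (17.1%). The clusters of chromosome 8 had 14 of 14 and 19 of 38 higher and 0 lower, and those of chromosomes 14 and 2 had 5 of 5 and 7 of 11 lower and 0 higher. Keratin-associated proteins of hair had 21 of 92 higher (22.8%) and 19 lower (20.7%), below the 30% and 25.8% of all genes. By cluster, 18 of 28 genes of the chromosome 16 cluster were higher, and 14 of 18 of chromosome 10 and 5 of 10 of chromosome 7 were lower, but the 34 genes of the chromosome 11 cluster, the most of the 4, had 2 higher and 0 lower (median -0.06). The clustered protocadherins, adhesion proteins that label single neurons, had 18 of 58 higher (31%) and 22 lower (37.9%). These shares were near the 32.3% and 39.8% of all protein-coding genes. All 14 Pcdha genes were higher (median 0.53), 4 of 22 Pcdhb genes were higher and 0 lower, and all 22 Pcdhg genes were lower (median -0.56). Pcdha and Pcdhg genes overlap within their arrays and share bins. All 3 arrays lie side by side on chromosome 18.

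Very long genes of neurons, which do not form clusters, were also mostly higher. Of 38 such genes, which encode synaptic and adhesion proteins, 36 were higher and 1 lower (94.7% against 30% of all genes higher), 27 by at least 2-fold, with a median of 1.19. Csmd2, with relative signals of 48.6, 53.6 and 49.2 in LMNB1 and 95, 109 and 106 in IGG, was the lower one (-1.03 ± 0.12). It encodes a large complement-control protein of synapses, and its 581 bins had a G+C of 48%, against a median of 38.2% over the list. Each of its LMNB1 libraries lay below each IGG library, and 62% of all tested genes likewise had no overlap between groups.

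**Figure D2:**
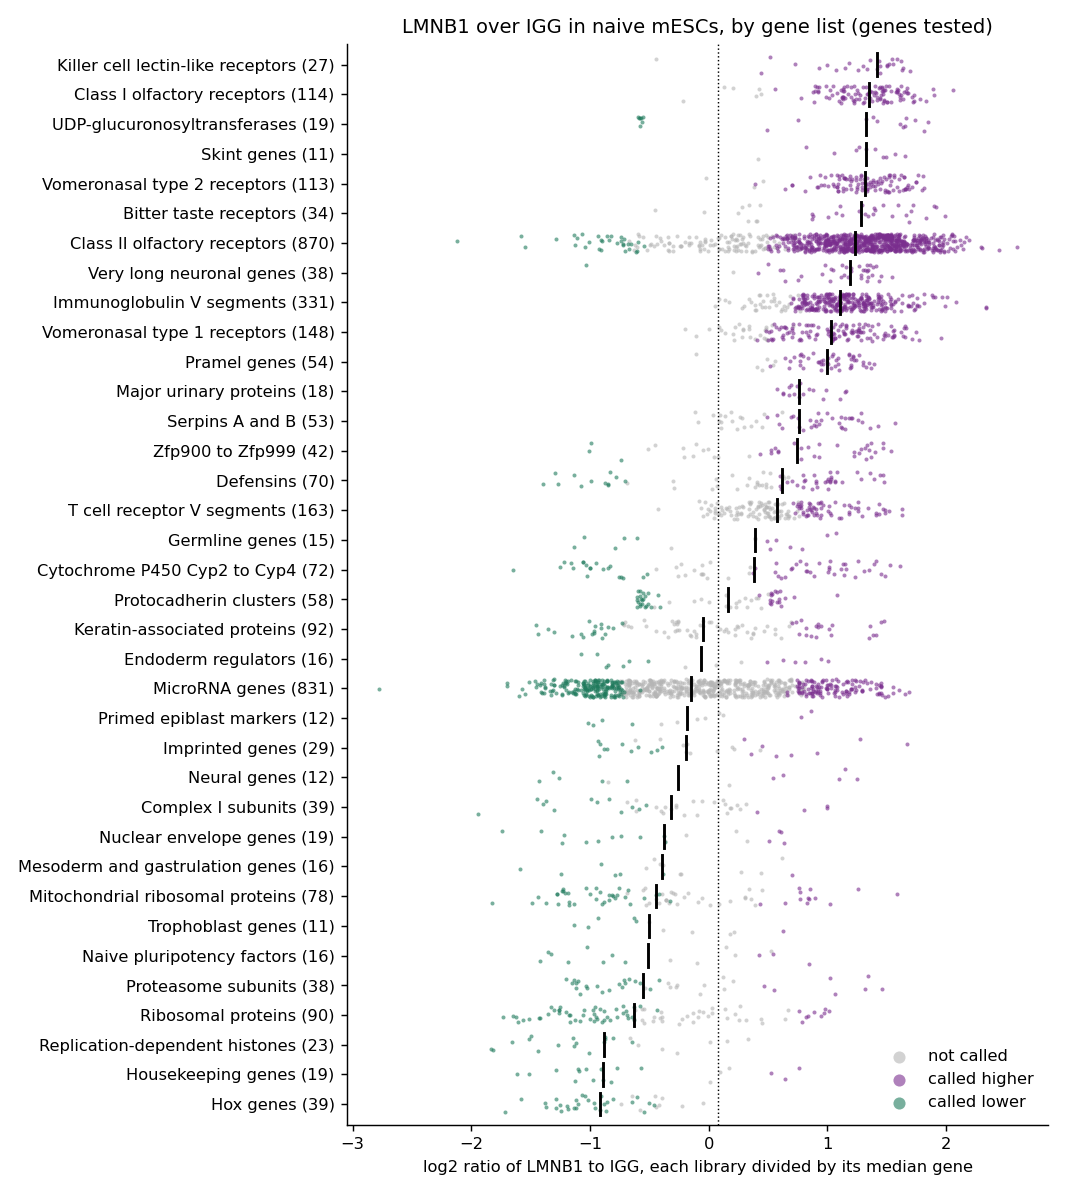
LMNB1 ratio (x axis, log2 of LMNB1 over IGG) of each tested member of 36 gene lists, sorted by median, with the number tested in brackets. Black bars are list medians, colours give the call and the dotted line is the median of all tested genes at 0.08; killer cell lectin-like and olfactory receptors lie to the right, Hox, housekeeping and histone genes to the left, and cytochrome P450, defensin and protocadherin lists on both sides.

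The lists with the lowest medians were those of Hox, housekeeping and histone genes. Of 39 Hox genes, which set the body axis and are silent in naive mESCs, 30 were called lower and 0 higher (76.9% against 25.8% of all genes; median -0.92). The cluster medians were -1.16 for Hoxb, -1.10 for Hoxa, -0.65 for Hoxc and -0.54 for Hoxd. Hoxb1 was lowest, with relative signals of 0.421, 0.227 and 0.130 in LMNB1 and 1.36, 0.911 and 0.833 in IGG (-1.71 ± 0.32). Of 67 replication-dependent histone genes only 23 passed the filter on low values, and 16 of these were lower and 0 higher (median -0.885).

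The ribosomal protein genes had 48 of 90 lower (53.3% against 25.8% of all genes) and 9 higher (median -0.63), and Rpl13a, with relative signals of 0.342, 0.591 and 0.714 against 2.53, 1.76 and 1.76, stood at -1.73 ± 0.27. Mitochondrial ribosomal proteins had 36 of 78 lower and 13 higher (-0.44), proteasome subunits 21 of 38 and 7 (-0.55), complex I subunits 12 of 39 (30.8%) and 4 (-0.32), and a list of 19 housekeeping genes 13 lower and 3 higher (-0.89). Every one of these lists held members of both directions. Protein-coding genes as a whole were called lower at 39.8% and higher at 32.3%, so complex I had a smaller share of lower genes than they did. Psmd14, a subunit of the proteasome lid, had 53.1, 34.4 and 43.7 in LMNB1 and 15.3, 15.4 and 16 in IGG (1.46 ± 0.14), and Mrps30, of the small mitochondrial subunit, had 1.59 ± 0.21. Sdha, a subunit of succinate dehydrogenase, was at 0.76 ± 0.15, while Actb and Gapdh were at -1.12 ± 0.25 and -0.89 ± 0.23. Among 831 tested microRNA genes 130 were higher (15.6%) and 198 lower (23.8%), below the 30% and 25.8% of all genes, with a median of -0.15. Mir6359 and Mir6240, the extremes of this list, touched 1 bin each. In the shortest of 4 length classes, of 10 to 1132 bases, 24.9% of genes were called higher and 11.1% lower.

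Sign changed over short distances in a stretch of chromosome 13. A vomeronasal cluster (chr13:22268610-23438076) with 21 of 34 receptor genes higher and 0 lower (median 0.54), beside 30% and 25.8% of all genes, lay between groups of histone genes that were mostly lower. On one side, 5 of 5 histone genes within chr13:22219334-22227846 were lower (median -1.51); H2ac11, which encodes a core histone, had relative signals of 0.184, 0.318 and 0.182 in LMNB1 and 1.00, 1.07 and 1.07 in IGG (-1.83 ± 0.30, limma adjusted p = 9.69e-06). On the other side, 11 of 14 within chr13:23865450-24118834 were lower (median -0.945). Neighbouring histone genes can share a 1 kb bin and are then not separate measurements. Low ratios at the flanks were not confined to histone genes. Trim38 (-0.89 ± 0.19), Slc17a2 (-0.78 ± 0.20) and Gm11279 (-1.33 ± 0.32) were called lower too. Zfp184 and Hfe were not called, and Zfp322a was higher (0.46 ± 0.16).

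**Figure D3:**
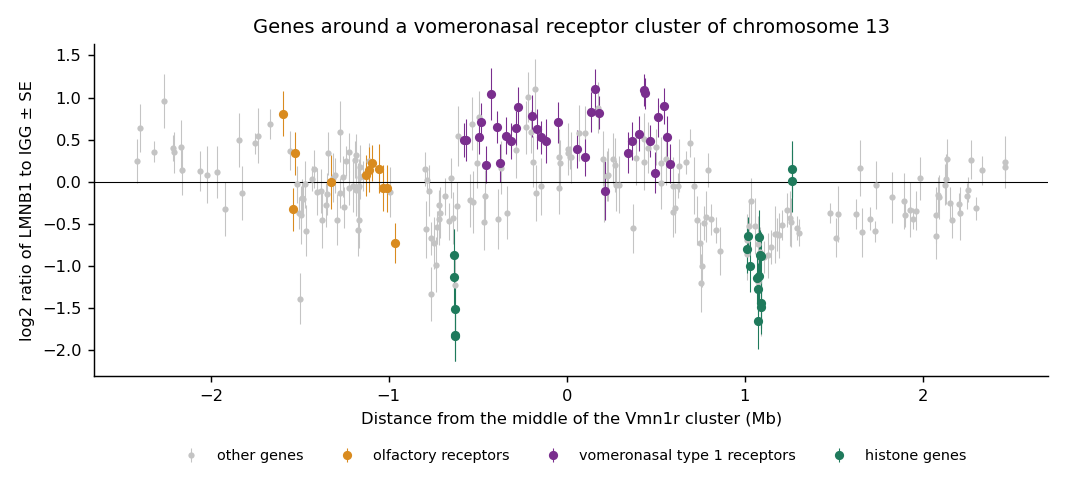
LMNB1 ratio (log2 of LMNB1 over IGG, points with SE bars) of every tested gene within 2.5 Mb of the middle of the vomeronasal type 1 receptor cluster of chromosome 13, against distance in Mb. Vomeronasal genes (purple) lie mostly above 0, with a median of 0.54, and the histone genes (green) at both flanks mostly below, with medians of -1.51 and -0.945. Other genes (grey) of the flanks were in part called lower as well.

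Genes of the pluripotency network gave both signs. Of 16 naive factors 8 were called lower (50% against 25.8% of all genes) and 3 higher (18.8% against 30%), a small list with a median of -0.51. Among protein-coding genes alone 39.8% were called lower and 32.3% higher. Pou5f1, which encodes OCT4, had relative signals of 0.697, 0.989 and 1.23 in LMNB1 and 2.50, 1.84 and 1.82 in IGG (-1.02 ± 0.25, limma adjusted p = 9.64e-04). Esrrb, an orphan nuclear receptor of the naive state, had 17.2, 23.9 and 24.1 against 39.3, 42.0 and 38.4 (-0.89 ± 0.13), and Tbx3, Sox2 and Klf4 were at -1.42 ± 0.20, -0.81 ± 0.28 and -0.70 ± 0.24. Zfp42, which encodes REX1 and is a marker of the naive state, was higher, with 5.16, 6.48 and 6.49 against 3.89, 4.4 and 4.03 (0.54 ± 0.16, adjusted p = 0.00567), as was Nr0b1 on X (0.85 ± 0.31). Nanog did not pass (0.22 ± 0.18, adjusted p = 0.293) and its groups overlapped. Sox2, Klf4 and Nr0b1 each lost the call when 1 library was left out, Sox2 without IGG replicate 2 or LMNB1 replicate 1, Klf4 without replicate 3 of either antibody, and Nr0b1 without IGG replicate 1 or LMNB1 replicate 1.

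Genes of the next stages also gave both signs. Fgf5, a growth factor switched on in primed cells, was higher with 8.55, 6.12 and 6.88 in LMNB1 and 4.83, 3.84 and 3.74 in IGG (0.78 ± 0.17, adjusted p = 2.69e-04), and so was Sox17, a factor of endoderm (0.81 ± 0.18). Gata4, another endoderm factor, was lower with 6.50, 7.33 and 7.31 against 11.9, 15.4 and 18.1 (-1.08 ± 0.15). Otx2 (-0.10 ± 0.17), Gata6 (0.07 ± 0.16) and T (-0.41 ± 0.27) did not pass, though T was called lower without IGG replicate 1. Of the 12 primed markers 2 were higher and 4 lower, of 16 endoderm regulators 6 and 7, of 16 mesoderm genes 1 and 6, of 11 trophoblast genes 1 and 5, of 12 neural genes 5 and 5, and of 15 germline genes 7 and 5. Against 30% of all genes called higher and 25.8% called lower, these shares were 16.7% and 33.3% for the primed, 37.5% and 43.8% for the endoderm and 46.7% and 33.3% for the germline list. They were 6.25% and 37.5% for the mesoderm, 9.09% and 45.5% for the trophoblast and 41.7% and 41.7% for the neural list. Protein-coding genes as a whole had 32.3% higher and 39.8% lower. The lower shares of the primed, mesoderm and germline lists were below that. With 11 to 16 genes a list, 1 gene moves a share by several percentage points. The medians ran from -0.50 (trophoblast) to 0.39 (germline).

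At the extremes of these lists, Sox1, a neural factor, had 0.724, 1.26 and 0.883 in LMNB1 and 2.89, 2.29 and 2.9 in IGG (-1.43 ± 0.23). Afp, an albumin-like protein of yolk sac and fetal liver, stood at 1.01 ± 0.16 and Sycp3, of the meiotic chromosome axis, at 1.07 ± 0.18. Among 29 imprinted genes 8 were higher and 11 lower, shares of 27.6% and 37.9%. All genes had 30% and 25.8%, and protein-coding genes alone had 32.3% and 39.8%. Ube3a, a ubiquitin ligase of neurons, had 47.0, 30.8 and 39.1 in LMNB1 and 11.8, 11.4 and 12.9 in IGG (1.67 ± 0.14, limma adjusted p = 2.01e-09), whereas Mest, a hydrolase expressed in mesoderm, had -0.94 ± 0.18.

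The genes for the envelope itself gave both signs. Of 19 genes of the nuclear envelope 11 were lower (57.9% against 25.8% of all genes) and 4 higher (21.1% against 30%), with a median of -0.38. The shares of protein-coding genes alone were 39.8% lower and 32.3% higher. Lmna, which encodes the A-type lamins, had relative signals of 2.67, 4.85 and 5.18 in LMNB1 and 12.3, 9.01 and 11.9 in IGG (-1.41 ± 0.19). Lmnb2 (-1.22 ± 0.20), Emd (-0.81 ± 0.28), Lbr (-0.38 ± 0.16, adjusted p = 0.0427) and, lowest, Lemd2 (-1.74 ± 0.21), all of them genes of lamins or inner membrane proteins, were lower too. Tmpo, which encodes LAP2B, had 13.1, 12.1 and 12.3 against 9.36, 8.30 and 7.18 (0.60 ± 0.14), and Syne1, a nesprin, 0.64 ± 0.12. Lmnb1 did not pass the test at 0.23 ± 0.13, although its groups did not overlap. The calls of Lbr and Emd were lost without 1 library: Lbr without IGG replicate 2 or 3 or LMNB1 replicate 1 or 3, and Emd without IGG replicate 3 or LMNB1 replicate 1.

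Across the genome the ratio was ordered by base composition and gene density, and LMNB1 levels spread more widely than the background. Genes were placed in 4 classes of nearly equal size by the G+C of the gene body, and levels were compared per 1 kb bin, relative to the median gene per bin. In the class with the lowest G+C (median 39.1%) the median levels per bin were 1.87, 1.41 and 1.59 in the LMNB1 libraries and 0.881, 0.807 and 0.862 in the IGG libraries. In the class with the highest (52.4%) they were 0.689, 0.902 and 0.816 and 1.27, 1.29 and 1.24. The order of antibodies turned between the classes in every library, and LMNB1 replicate 1 had the widest range. The median ratios of the 4 classes were 0.85, 0.21, -0.28 and -0.64. The share called higher went from 68.6% to 8.16%, against 30% of all genes. That called lower went from 2.76% to 49.5%, against 25.8% of all genes. Spearman's rho of ratio and G+C was -0.595 across 70313 genes, which share libraries and, where they overlap, bins.

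Classes by the number of protein-coding gene starts within 0.5 Mb on either side gave median ratios of 0.63, 0.22, -0.17 and -0.65 (rho -0.475). In the class with 0 to 4 neighbours 51.7% were called higher and 5.16% lower, beside 30% and 25.8% of all genes. In that with 20 to 74 neighbours 16% were higher and 52.7% lower. Some families of the higher side lay in dense stretches, where members of their own cluster count as neighbours. The median number was 56.5 for class I and 38 for class II odorant receptors. It was 23 for vomeronasal type 1 and 24 for killer cell lectin-like receptors. For vomeronasal type 2 receptors it was 12, and for immunoglobulin V segments and very long neuronal genes 0. Gene length had no such order: the class medians were 0.25, 0.01, -0.18 and 0.18 from short to long (rho -0.0419). Promoter G+C and CG number gave rho of -0.418 and -0.301. Over the 28590 genes of at least 10 bins the SD of the mean log2 level per bin was 0.746 for LMNB1 and 0.424 for IGG, and the levels of the antibodies had a Spearman's rho of 0.0447 and a Pearson's r of 0.239.

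**Figure D4:**
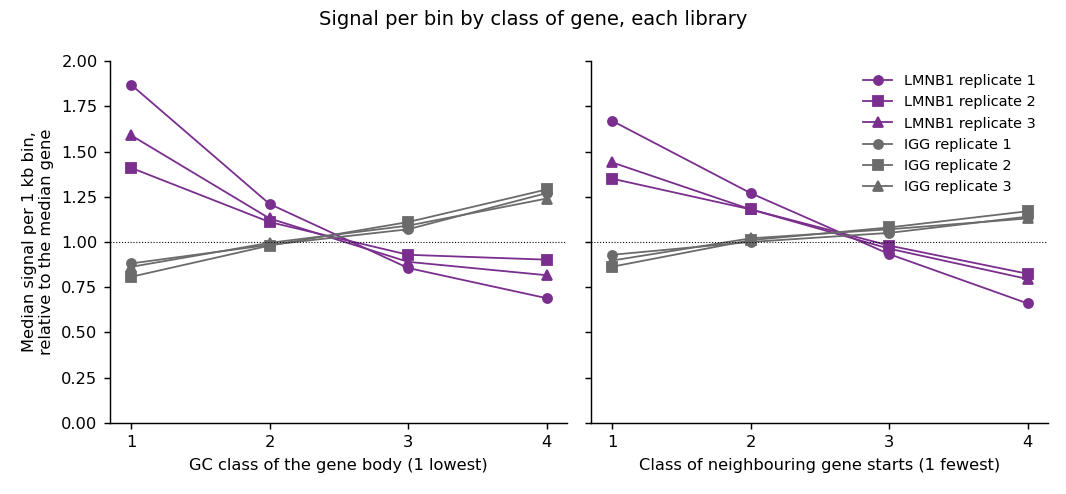
Median signal per 1 kb bin relative to the median gene (y axis) in each LMNB1 (purple) and IGG (grey) library, for genes in 4 classes by G+C of the gene body (left) and by neighbouring protein-coding gene starts (right). LMNB1 goes down with G+C from 1.41 to 1.87 to 0.689 to 0.902, and IGG goes up from 0.807 to 0.881 to 1.24 to 1.29.

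Chromosomes differed in the same sense. The median ratio was highest on X (0.57), followed by Y and chromosomes 3 and 1 (0.33 each), and lowest on chromosomes 11 (-0.45), 15 (-0.30), 4 (-0.23) and 19 (-0.22). On X 46.7% of genes were called higher and 4.31% lower, and on chromosome 11 17% and 44.7%, beside 30% and 25.8% of all genes. Across the 19 autosomes the median ratio and the median G+C had a Spearman's rho of -0.943. The background itself varied by chromosome, and whether the ratio removes this in full was not tested. The median level per bin in the 3 IGG libraries was 0.498, 0.472 and 0.483 on X and 1.5, 1.52 and 1.53 on chromosome 8, and the LMNB1 libraries had 0.883, 0.721 and 0.754 and 1.42, 1.43 and 1.42. The median ratio of chromosome 8 was -0.12.

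Most genes called at 2-fold had a neighbour called likewise, where neighbours that share bins are counted. Of all genes 13.2% were called at least 2-fold higher and 11.4% at least 2-fold lower, 9265 and 8031 genes. Consecutive tested genes that were all called at least 2-fold higher formed 1848 runs of 2 or more genes with 7025 genes in all (75.8% of those called), and lower genes formed 1511 runs with 6519 (81.2%). Neighbours that overlap share bins and form runs by construction, and 1518 of the higher and 1144 of the lower runs held at least 2 genes with no bin in common. The genes of those runs that share no bin came to 5354 of the 9265 higher and 3970 of the 8031 lower genes. The median span was 0.129 Mb for higher and 0.058 Mb for lower runs, and the longest were 2.309 and 0.832 Mb. The higher run with most genes held 47 genes, 29 of them protein coding, on chromosome 2 (chr2:86162479-86754889), all within the odorant receptor cluster, with a median ratio of 1.56 and a G+C of 34.1%. Others held 36 genes with Or6c and Vmn2r members on chromosome 10 (chr10:129571440-130378402) and 34 genes of chromosome 1 (chr1:173624457-174203249) that begin with the interferon-inducible Mndal, Ifi211 and Ifi203 and end with Or10z1, Mptx1 and Or10x1.

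Of the longest higher spans, 3 held a single protein-coding gene each: Ptprd, a receptor phosphatase (2.309 Mb), Dmd, the dystrophin gene (2.257 Mb), and Cntnap2, a neuronal adhesion protein (2.245 Mb). Another, of 2.273 Mb on chromosome 2, held 6 genes, 5 of them protein coding, among them Esf1, Macrod2 and Flrt3. Genes that overlap such a gene share its bins. The lower run with most genes held 28 genes of chromosome 17 (chr17:27069557-27467040) from Kifc5b to Lemd2, with a median ratio of -1.44 and a G+C of 52.5%, and the longest in span (0.832 Mb) held Spock1 and Klhl3 of chromosome 13.

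By biotype, protein-coding genes had a median ratio of -0.15 (32.3% higher, 39.8% lower of 20864). That of lncRNAs was -0.01 (28% and 26.3% of 31541), with shares near the 30% and 25.8% of all genes. Processed pseudogenes, copies made from RNA that were inserted elsewhere, had 0.41 (29.7% and 5.65% of 7384), and unprocessed pseudogenes, remnants of duplicated genes, 0.61 (45.2% and 6.19% of 1356). The higher share of processed pseudogenes was also near that of all genes.

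Transposable elements (TEs) gave smaller differences. The mean signal over the copies of a family was divided by the median family of its library, and 1205 families of at least 10 copies were tested by the same model with a pseudocount of 0.1. LMNB1 was called higher at 344 families (28.5%) and lower at 356 (29.5%), 0 of them at least 2-fold higher and 5 at least 2-fold lower. By the median instead of the mean over copies 206 families were lower, and 68.3% of the higher and 54.5% of the lower calls were kept. The 5th and 95th percentiles of the ratio were -0.35 and 0.35. Dividing by the mean family moved the median ratio by 0.58 and gave 1172 higher and 7 lower families, and the spike-in scale moved the median by 2.00, so directions below are relative to the median family. A TE copy touches bins that hold flanking DNA, and its value is not that of the element alone. The methods give 10 kb bins for TEs, whereas 1 read was worth nearly as much in the TE tables as in the gene tables (a ratio of 1.07 to 1.12 in the 6 libraries), as with bins of 1 width in both. Where reads match many copies, copies and families cannot be separated.

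SINEs, short elements that pile up near genes, were lower as a class. Of 34 families 33 were called lower and 0 higher (97.1% lower against 29.5% of all families, median -0.34), including all 15 of the Alu group, all 5 of B2, all 4 of B4, all 4 of ID and all 5 of MIR. B2_Mm1a was lowest, with relative signals of 0.665, 0.756 and 0.755 in LMNB1 and 1.18, 1.14 and 1.12 in IGG over 18416 copies, a ratio of -0.60 ± 0.05 (limma adjusted p = 4.72e-04, n = 3). ID_B1, B3, B1_Mm and MIR stood at -0.43 ± 0.04, -0.26 ± 0.03, -0.22 ± 0.03 and -0.18 ± 0.02. In each of these families every LMNB1 library lay below every IGG library. The share of all TE families without overlap was not counted, so this does not set them apart.

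LINEs, long autonomous elements, were higher on balance, by subgroup. Of 194 families 90 were higher (46.4% against 28.5% of all families) and 44 lower (22.7% against 29.5%), with a median of 0.06. The Lx group of rodent L1 elements had 20 of 21 families higher and 0 lower (median 0.35), and Lx itself had 1.67, 1.55 and 1.6 in LMNB1 and 1.22, 1.11 and 1.14 in IGG over 16129 copies (0.44 ± 0.04, adjusted p = 4.72e-04). The L1Md group, which holds the young mouse L1 families, had 19 of 25 higher and 0 lower (median 0.24). The 3 families of it fixed by name did not pass: L1MdA_I had 3.30, 3.71 and 3.13 against 4.26, 3.51 and 3.67 (-0.17 ± 0.09, adjusted p = 0.163), L1MdTf_I 0.04 ± 0.08 and L1MdGf_I -0.05 ± 0.07. Their groups overlapped. Older L1M families were divided, with 26 of 82 higher (31.7%) and 31 lower (37.8%), and L1M5 (-0.04 ± 0.03) and L2 (-0.02 ± 0.02) did not pass.

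LTR elements, which descend from retroviruses, had 175 of 621 families higher and 168 lower, and these shares (28.2% and 27.1%) were close to the 28.5% and 29.5% of all families. The 3 highest of all families with at least 100 copies were MER67D, with relative signals of 1.54, 1.36 and 1.43 against 0.957, 0.903 and 0.956 (0.57 ± 0.05), RMER6-int (0.55 ± 0.05) and ERVB4_3-LTR_MM (0.51 ± 0.03). RLTR13D6 (0.50 ± 0.07) and RLTR13F (0.48 ± 0.04) followed, of a group in which 18 of 23 families were higher and 0 lower (median 0.27). By the median copy RLTR13F fell to 0.23 and lost its call. L1Lx_II, Lx and RMER6C completed the 8 highest, at 0.43 to 0.44. The IAP group, intracisternal A particles that are kept silent in stem cells, had 16 of 25 lower and 2 higher (median -0.21). IAPEz-int had 1.46, 2.11 and 1.54 against 2.63, 2.74 and 2.84 over 7601 copies (-0.67 ± 0.13, adjusted p = 0.00408), and LMNB1 replicate 2 stood above the others. IAPLTR1a_Mm was at -0.61 ± 0.09. MERVL-int and MT2_Mm, the internal part and LTR of an element of cleavage-stage embryos, were at -0.33 ± 0.06 and -0.16 ± 0.04, neither of them called by the median copy, ERVB4_2-I_MM at -0.19 ± 0.06, a call lost without IGG replicate 2 or 3 or LMNB1 replicate 1 or 3, and ORR1A2 at -0.20 ± 0.03. DNA transposons had 56 of 294 higher (19% against 28.5% of all families) and 100 lower (34% against 29.5%), with a median of -0.04, and Charlie1 did not pass (-0.05 ± 0.03).

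In several of the lowest families 1 copy held a large share of the IGG signal, and the ratio without that copy was not computed. FordPrefect, a DNA transposon family of 270 copies, had the lowest ratio, with 1.33, 1.39 and 1.26 in LMNB1 and 16.1, 7.33 and 8.32 in IGG (-2.81 ± 0.27). A single copy held 93.8%, 86.5% and 87.5% of its IGG signal, and the median over copies gave 0.03. MTC-int (-1.06 ± 0.19), with 36.3% to 55.3% of its IGG signal in 1 copy, turned to 0.12 over the median copy. RLTR49 (-0.76 ± 0.14) and IAPEY3C_LTR (-0.60 ± 0.10), with 32.6% to 55.5% and 25% to 45.7% of their IGG signal in 1 copy, lost the call by the median copy. In all 4 families IGG replicate 1 was the highest library. RLTR1B-int (-0.65 ± 0.09) held 8.13% to 16.1% of its IGG signal in 1 copy and gave -0.37 by the median copy. ZP3AR, a satellite of 2586 copies, held at most 0.352% in 1 copy in any library. ZP3AR had 0.548, 0.734 and 0.642 against 1.17, 1.27 and 1.20 (-0.83 ± 0.09) and -0.95 by the median copy.

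The satellites of centromeric heterochromatin had very high values in both antibodies. GSAT_MM, the major satellite, with 51 annotated copies, had relative signals of 416, 576 and 550 in LMNB1 and 1520, 1420 and 1830 in IGG (-1.64 ± 0.21, limma adjusted p = 8.27e-04). SYNREP_MM, with 26 copies, had 96.3, 115 and 116 against 288, 187 and 276 (-1.18 ± 0.21). One copy held 49.2% to 59.2% of the signal of GSAT_MM in every library of either antibody and 56.6% to 70.1% of that of SYNREP_MM. The median over copies gave -0.41 for GSAT_MM, not called, and 0.29 for SYNREP_MM. Satellite arrays are collapsed in the assembly, and these are sums over reads from many unplaced copies.

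**Figure D5:**
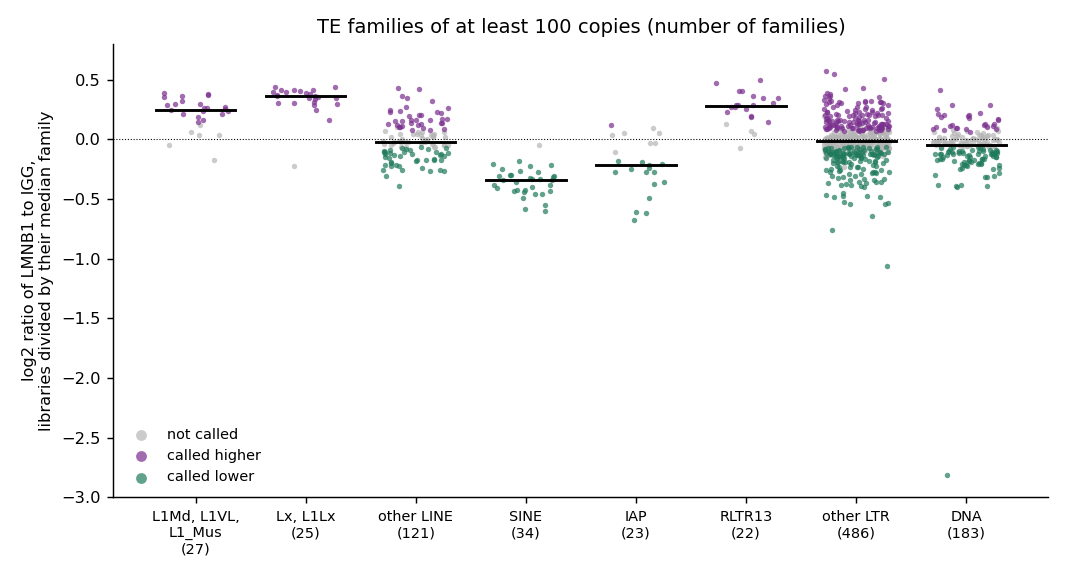
LMNB1 ratio (y axis, log2 of LMNB1 over IGG, libraries divided by their median family) of TE families of at least 100 copies, by group, with the number of families in brackets. Bars are medians and colours give the call; Lx and L1Lx (0.36), RLTR13 (0.28) and L1Md families (0.25) lie above 0 and SINE (-0.34) and IAP families (-0.21) below it, relative to the median family, and the isolated point near the bottom is FordPrefect.

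Contrasts taken within each library, which no scaling between libraries can move, were higher in LMNB1. The log2 ratio of the mean over LINE copies to that over SINE copies was 0.94, 0.76 and 0.80 in the LMNB1 libraries and 0.31, 0.18 and 0.25 in IGG, a difference of 0.59. That of genes of at least 100 kb to genes under 10 kb, per bin, was 0.03, -0.14 and -0.04 against -0.35, -0.30 and -0.28 (difference 0.26), and that of X to autosomal genes was -0.54, -0.65 and -0.64 against -1.03, -1.12 and -1.08 (difference 0.47). In each the LMNB1 libraries lay above all IGG libraries. The two-sided exact permutation p was 0.1 for each, the smallest that 3 against 3 samples allow, and 0.1 after adjustment over the 3.

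The ratio was also available after the cells left the naive state. EpiLCs are the epiblast-like cells that mESCs form in FGF and Activin A, and LMNB1 and IGG were measured in wild-type EpiLCs in 3 libraries each. Of the genes at least 2-fold higher in naive mESCs 98.9% had an EpiLC ratio above 0, and of those at least 2-fold lower 98.9% had one below 0. Pearson's r of the ratios was 0.857 across 70381 genes and 0.938 across 1205 TE families, whose values share bins. A test of the difference between stages in 1 limma model called 20 genes (0.0284%), 3 with a higher and 17 with a lower ratio in EpiLCs, while 7651 had an unadjusted p under 0.05. It called 0 TE families (0%; smallest adjusted p = 0.112), with 57 at an unadjusted p under 0.05. The gene counts depended on the model and scaling: a replicate block gave 111 higher and 137 lower, and division by the mean gave 16 and 32. They also depended on single libraries: leaving out 1 of the 12 gave 0 to 182 higher and 1 to 195 lower, the most without naive LMNB1 replicate 2. No member of the 36 lists was called. The EpiLC and naive medians were 1.23 and 1.23 for class II receptors, 1.31 and 1.32 for vomeronasal type 2 receptors, 1.11 and 1.19 for long neuronal genes and -0.70 and -0.92 for Hox genes. They lay farthest apart for the germline list (0.04 and 0.39), the serpins (0.49 and 0.765) and the endoderm regulators (-0.34 and -0.06), and were 0.62 and 0.38 for the cytochrome P450 genes.

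LAP2B, another protein of the inner membrane, was mapped in 3 wild-type naive libraries of the series. The same IGG libraries serve as its control, so the values are given side by side only. The median LAP2B ratio was 1.02 for class I and 0.80 for class II odorant receptors, where LMNB1 had 1.35 and 1.23, and -0.78 for Hox genes, where LMNB1 had -0.92. For Pou5f1 it was -1.04 against -1.02, for Lx 0.34 against 0.44 and for B2_Mm1a -0.54 against -0.60.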

How the data were processed

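CUT&RUN reads had been aligned by the authors to mm39 (GRCm39) with Bowtie2 2.3.5.1, and filtered with SAMtools 1.10 to primary alignments in proper pairs, without duplicates, the mitochondrial genome or unassembled contigs, per the study's methods. The deposited signal values are RPKM per bin from deepTools, multiplied by the authors by a spike-in factor from yeast DNA. The step from bins to genes and TE copies is not given in the sources used here, and a sum over the bins touched, with no division by length, was inferred from the values. Blacklisted regions were left out of the gene tables and kept in the TE tables. A bin width of 1 kb was inferred too: 343 of 343 sets of genes within 1 shared 1 kb bin had equal values, against 65 of 628 sets that shared only a 10 kb bin. The methods give 10 kb for TEs, but 1 read was worth 1.07 to 1.12 times as much in the gene as in the TE tables, where bins of 10 kb would make it about 10 times. The constant behind the LMNB1 and IGG factors and the sequencing run of these libraries are not given in the sources used here, so each library was divided by its own median. Divided by the smallest step of its library, 100% of gene values lay within 0.05 of a whole number, which gave the recovered reads.

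Genes were placed by GENCODE M39, another release than that of the study's methods but on the same build. Coordinates were found for 78131 of 78202 genes. The lowest 0.1 of genes by mean signal and families under 10 copies were left out. log2(relative signal + 0.1) was tested with limma 3.58.1 (trend, R 4.3.3) on the 6 naive libraries, with Benjamini-Hochberg adjustment over all features, and the stage difference on 12 libraries. A fold change on this scale understates the change of low genes. Alternatives used edgeR 4.0.16 and DESeq2 1.42.0 on recovered reads, other pseudocounts, scalings and filters, a replicate block and leaving out each library. The model was also run on simulated data in which few genes were changed. That run does not cover data in which many genes differ, and its outcome is not given here. Promoters were read with pysam 0.24.0, and other steps used Python 3.11.15, numpy 2.4.6, pandas 2.3.3 and scipy 1.17.1.

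The members, although defined by the labels alone, and the gene lists were chosen with earlier results of these data known. Named genes were the 8 highest and 8 lowest called protein-coding genes of at least 5 bins with no overlap and over 1 Mb apart, the extremes of each list and 20 genes by symbol, with families of at least 100 copies treated likewise. For the 8 of each direction, symbols that start with Gm or end in Rik were passed over. Genes named within runs or clusters only locate them. Of either LAP2B table, 21 columns of other samples were not used, nor was a table of the authors' mean and modified z score of LAP2B per TE copy. Some results that the rule names are not reported here.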

Additional observations from a re-analysis of the deposited data

Results flagged for a closer look

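In 20 genes the LMNB1 ratio differed between EpiLCs and naive mESCs by the test of the difference itself (limma, 12 libraries, n = 3 per group, adjusted p of 0.00139 to 0.0465). In 17 of them the ratio was lower in EpiLCs. Values are given for 15 of these. The difference in log2 was -1.34 for Sinhcaf, -1.15 for Utp18, -1.10 for Naf1, -1.07 for Xiap and for the antisense transcript Far1os, -1.02 for Rsbn1l, -0.98 for Tcea1 and -0.97 for Rc3h1. It was -0.96 for Far1, which overlaps Far1os and shares its bins, -0.93 for Orc5, -0.92 for Cacul1, -0.89 for Tlk2 and N4bp2l2, -0.88 for Ipo8 and -0.82 for Abl2. All 17 were called higher in naive mESCs, with naive ratios of 0.63 to 1.51. Sinhcaf, which encodes a Sin3 complex subunit, had naive relative signals of 15.1, 14.2 and 16.4 in LMNB1 and 7.17, 7.10 and 6.25 in IGG, a ratio of 1.14 against -0.19 in EpiLCs.

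The other 3 had a higher ratio in EpiLCs, by 0.98 for Fam222a, 1.00 for Grm4, a glutamate receptor gene, and 2.41 for Gm54867. The last is annotated as an rRNA gene of 1 bin, with relative signals of 0.803, 0.955 and 0.558 in LMNB1 and 55.9, 20.6 and 21.0 in IGG, so that a very high background set its naive ratio of -5.09. With a replicate block 111 higher and 137 lower genes were called, and with division by the mean 16 and 32. The number of calls also depended on single libraries. It was 7 higher and 14 lower without EpiLC IGG replicate 1, 8 and 19 without EpiLC LMNB1 replicate 2 and 182 and 195 without naive LMNB1 replicate 2, and each other omission left at most 2 higher and 4 lower.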

How the results depend on the processing

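In the tally of recomputed values, 1517 kept their direction and side of the threshold, 27 lost the call, 2 gained one and 16 changed sign. Counts that moved are not in this tally, and many of them follow. Against 21109 higher and 18139 lower genes, dividing by the mean gave 12368 higher, genes of at least 10 kb gave 10427 and 9371 (fewer genes tested), and the spike-in scale gave 58549 and 34. Against 344 and 356 TE families, the mean gave 1172 and 7, the spike-in scale 1203 and 1, and the median over copies 206 lower, with 54.5% of the lower calls kept. Leaving out 1 library gave 17617 to 20634 higher and 14675 to 18293 lower genes. The within-library contrasts rose to 0.80, 0.355 and 0.60 with medians for means.

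Calls by stage were unstable: 16 higher and 32 lower genes with the mean (1 higher TE family), and 0 to 182 higher and 1 to 195 lower without 1 library. Same-numbered libraries of the 2 antibodies had deviations that correlated at 0.093, 0.123 and 0.00965, so the numbers did not pair them. With a replicate block there were 21948 and 18879 genes, 341 and 365 families, and 111 and 137 genes by stage.

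Single values changed sign only near 0 or where 1 copy weighed heavily. Values under the mean and spike-in scalings have the shift of the median removed. Gata6 turned to -0.0384 with DESeq2, -0.0569 with edgeR and -0.0358 with the mean, and ran from -0.0975 to 0.16 without 1 library. Otx2 turned to 0.09 on the spike-in scale. With the median over copies, FordPrefect was 0.0253, MTC-int 0.119, SYNREP_MM 0.293, L1MdA_I 0.124 and L1MdGf_I 0.194. On the spike-in scale L1MdA_I was 0.0241 and L1MdGf_I 0.124, and with the mean L1MdGf_I was 0.0257. Without 1 library L1MdTf_I ran from -0.0376 to 0.0939 and L1MdGf_I from -0.106 to 0.0017. Nr0b1 lost its call with edgeR and DESeq2 and, like Emd, with no filter, where Lmnb1 gained one. Lbr lost it per bin, and RLTR13F by the median copy. The cause was not tested.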
